A study of Rattus norvegicus with 21 samples.

Results

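Cytosolic ribosomal protein genes encode the proteins that, together with ribosomal RNA, build the large and the small subunit of the ribosome. The mRNAs of these genes are among the most abundant in most cells, and the proteins are made in matched amounts because each ribosome holds them in fixed proportion. In many vertebrate members the mRNA begins with a C followed by a run of pyrimidines, the 5′ terminal oligopyrimidine motif, through which growth signals acting by mTOR control how actively these mRNAs are translated. Members were the genes of probe sets of the Affymetrix Rat Genome 230 2.0 array with a single gene symbol that began with Rpl or Rps and a digit, or with Rplp, or was Rpsa. S6 kinases, Rps19bp1, pseudogenes and unnamed loci were left out. This gave 55 of the 31099 probe sets of the array, for 48 genes. In what follows each gene is 1 member, represented by its probe set of highest mean signal, and further probe sets of a gene are described apart.

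RNA came from anterior pituitaries of male ACI, COP (Copenhagen) and BN (Brown Norway) rats, which are inbred strains. At 9 weeks of age the rats received a silastic implant, which held 5 mg of the synthetic estrogen diethylstilbestrol (DES) in treated rats and was empty in control rats, and the glands were taken at 21 weeks of age, 12 weeks later. Each strain had 4 DES arrays and 3 control arrays, 21 in all, and every rat also received BrdU before death. Notes on the samples named 1 fewer independent replicate per group than there were arrays, whereas the design text counted each array as a biological replicate, so the p-values measure the spread between these arrays. The gland is a mixture of cell types, in which fewer cells of a type and less RNA per cell cannot be told apart.

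Of the 48 genes, 47 passed the filter on low signals, 32 of the large and 15 of the small subunit. Rpl3l, a paralog of Rpl3 known from skeletal muscle and heart, was the gene that did not pass. The signals fell into a bright class of 39 genes with a mean above 4000 array units and a dimmer class of 8, a limit set after the values were seen. The dimmer class held Rpl7l1, Rpl39, Rps27l, Rpl26l1, Rps4y2, Rpl28, Rpl30 and Rps13. Signals of different probe sets do not measure relative transcript numbers, so bright and dim here refer to probe sets and not to the abundance of the mRNAs. Ribosomal protein genes have many processed pseudogenes and close paralogs, and a probe set may also bind their transcripts.

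The sequence around the start of transcription is shown because it holds a feature that the rule for members did not use, the run of pyrimidines at the start of the mRNA. RefSeq promoters of the GRCr8 build were matched for 41 of the 48 genes. Each line gives 30 bases, 15 on either side of the annotated start, with the longest run of C and T in capitals. The first 4 genes are bright members with a long run, the next 3 are bright members named below for their change with DES or their level, and the last 4 are dim paralogs.
Rpl14, chr8:129163605-129163634, plus strand: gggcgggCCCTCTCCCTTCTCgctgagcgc
Rpl22, chr5:168117946-168117975, plus strand: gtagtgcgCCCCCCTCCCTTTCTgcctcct
Rps24, chr16:96502-96531, plus strand: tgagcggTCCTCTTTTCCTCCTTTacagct
Rpl34, chr2:221962269-221962298, minus strand: CCCCTTCCTTTTCCTCTTCCggggacggtg
Rplp0, chr12:46718376-46718405, minus strand: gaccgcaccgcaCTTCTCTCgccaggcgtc
Rpl3, chr7:113507976-113508005, minus strand: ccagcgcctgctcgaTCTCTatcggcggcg
Rpl39l1, chr10:5966607-5966636, minus strand: actgccaggccgTCCCgctatcctggtgtg
Rps27l, chr8:76443643-76443672, plus strand: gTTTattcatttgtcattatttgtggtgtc
Rpl26l1, chr10:17029014-17029043, minus strand: aaatgtcaTTTCCgggcctgcgcacacacc
Rpl7l1, chr9:21695703-21695732, plus strand: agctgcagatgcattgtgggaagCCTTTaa
Rps4y2, chr4:183000898-183000927, plus strand: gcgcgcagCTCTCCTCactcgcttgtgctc

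The longest run of C and T had a median of 8 bases over the 41 members and 4 bases over all 33469 promoters. A run of at least 8 bases occurred in 56.1% of the members and in 11.4% of all promoters. A C at the annotated start followed by 4 more pyrimidines occurred in 26.83% of the members and in 2.63% of all promoters. This count needs a C at the exact annotated base and leaves out other runs around it, such as the 17 bases in Rps24. It is therefore not the share of members whose mRNA begins with the motif. In Rpl34, whose change with DES was among the smaller ones of the bright members, the run was the longest of the 41, with 20 bases. In Rpl39l1, whose change was among the larger ones, the run had 4 bases. Over the whole promoter of 300 bases, on both strands, the palindromic estrogen response element, GGTCA and TGACC set 3 bases apart, was found in no member and in 0.03% of all promoters. The ETS motif CCGGAAG was found in 24.39% of the members and in 8.75% of all promoters, the YY1 motif AAGATGGC in 9.76% and 3.17%, and the E-box CACGTG in 7.32% and 6.42%. These letters are a description of the windows and do not show that a factor binds there.

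The first question was how the members changed after 12 weeks of DES in each strain. On the scaling of the deposited values, the ribosomal protein genes were higher with DES in every strain, and 0 members were lower at an adjusted or an unadjusted p under 0.05 in limma, against 32.4%, 28.1% and 22.6% of all genes that fell in ACI, COP and BN. This count takes the brightest probe set of each gene, and a second probe set of Rpl7l1 was lower in ACI and COP. In ACI, 38 of 47 members rose with DES, against 23.1% of all 11750 genes tested. In COP, 42 members rose, against 21.6% of all genes, and in BN 40 rose, against 16.9%. For ACI, COP and BN the members' median log2 change came to 0.61, 0.77 and 0.80, against -0.13, -0.08 and -0.06 for all genes. The members' medians are folds of 1.53, 1.71 and 1.74. The calls are limma's moderated t at an adjusted p under 0.05 over all probe sets tested.

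Genes of both subunits rose. In ACI, 26 of 32 large-subunit and 12 of 15 small-subunit genes rose, in COP 29 and 13, and in BN 28 and 12. In all 3 strains 38 members rose, against 11.6% of all genes. The called rises were modest in size, from 0.39 in Rpl23a to 1.24 in Rplp0 in ACI, from 0.49 in Rpl34 to 1.24 in Rplp0 in COP, and from 0.58 in Rpl23a to 1.47 in Rplp0 in BN. A change of 1 or more on the log2 scale was reached by 3, 6 and 7 members. All DES arrays lay above all control arrays for 29 members in ACI, 42 in COP and 41 in BN, against 24.8%, 24.2% and 17.3% of all genes. They all lay below in 0, 0 and 1 member, against 34.9%, 31.0% and 24.9% of all genes. In a further 35 tested probe sets that carry several gene symbols, at least 1 of them of a ribosomal protein, 32, 34 and 35 were called higher in ACI, COP and BN, with medians of 0.69, 0.79 and 0.79. Of all genes with a single symbol, 23.1%, 21.6% and 16.9% were called higher on that scaling. After quantile normalization 20, 17 and 15 of these probe sets were called higher and 3, 1 and 1 lower, with medians of 0.16, 0.15 and 0.13. Then 24.9%, 22.7% and 17.5% of all genes were called higher and 28.2%, 25.0% and 20.1% lower. These shares count genes, and no share of all probe sets was counted.

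The arrays differed in how bright their brightest probe sets were, and this moved with DES. The cre spike-in, a bacteriophage transcript that is labelled apart from the samples, is added with the hybridization mix and does not come from the gland, was higher with DES by 0.41 (ACI), 0.55 (COP) and 0.71 (BN) on the log2 scale. Its part in the members' rise was not tested. Among 3159 genes past the 90th percentile of signal, 39.3%, 37.1% and 35.8% rose in ACI, COP and BN, with median changes of 0.11, 0.10 and 0.11. The 39 bright members rose in 38, 39 and 39 cases in that set, with medians of 0.63, 0.77 and 0.85. The members' median rank by signal was at 99.6% to 99.7% of all genes on every array. Most of that set is therefore dimmer than the members and not matched to them in brightness.

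Single arrays stood apart in the same way. In ACI the median signal of the 47 members ranged from 24031 to 29090 on the 4 DES arrays and from 13633 to 21188 on the 3 control arrays. In COP it ranged from 26787 to 33596 with DES and from 16276 to 16773 in controls. In BN it ranged from 22212 to 38735 with DES and from 14673 to 16724 in controls. The DES and control arrays did not overlap in this median in any strain. It rose with the replicate number in the ACI control, ACI DES, COP DES and BN control groups, but not in COP control and BN DES. The log2 signal of the cre spike-in ranged from 14.81 to 15.06 with DES and from 13.97 to 14.93 in controls in ACI, from 14.79 to 15.16 with DES and from 14.40 to 14.43 in controls in COP, and from 14.55 to 15.72 with DES and from 14.21 to 14.44 in controls in BN, so it did not overlap in COP and BN and overlapped in ACI. ACI control replicate 1 was the dimmest array of its group and replicate 3 the brightest, in the members and in the cre spike-in, and BN DES replicates 3 and 4 were brighter than replicates 1 and 2 in both. Without ACI control replicate 1, 22 members rose in ACI and the median was 0.43.

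**Figure D1:**
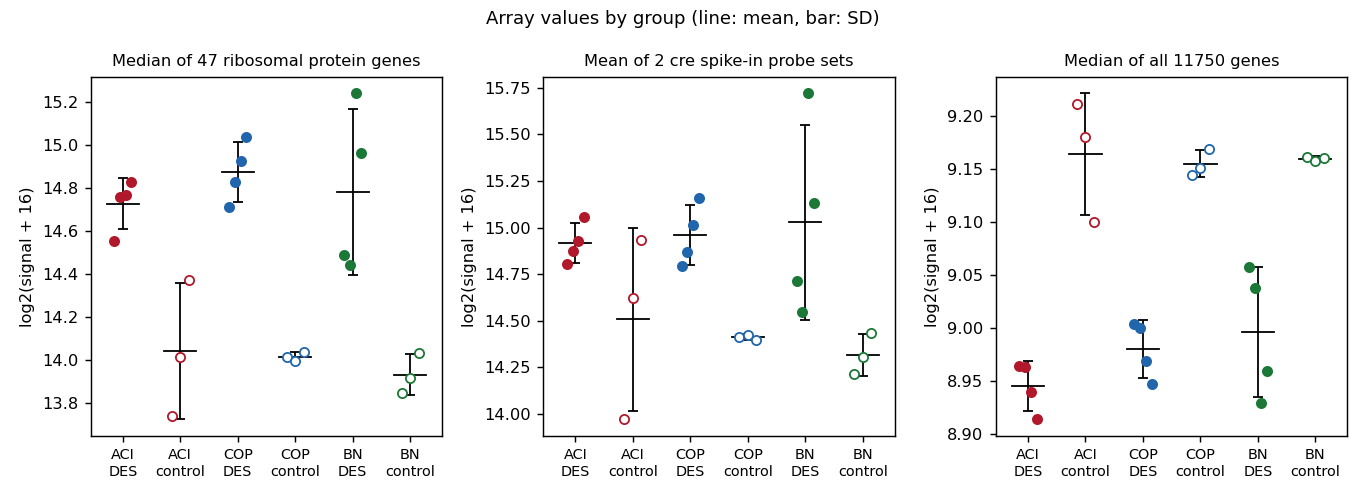
Each point is 1 array, on a scale of log2(signal + 16), for the median of 47 ribosomal protein genes, the mean of 2 cre spike-in probe sets and the median of all 11750 genes; filled points are DES and open points control arrays, lines are group means and bars SDs. The means of the members and of the cre spike-in were higher with DES in every strain, and BN DES replicate 3 was highest in both.

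The number of members called depended on the normalization between arrays. With quantile normalization, which gives every array the same distribution of values, 17 members rose and 2 fell in ACI, 21 rose and 1 fell in COP, and 11 rose and 0 fell in BN, against 24.9%, 22.7% and 17.5% of all genes that rose and 28.2%, 25.0% and 20.1% that fell. The medians were then 0.12, 0.16 and 0.09, against -0.05, -0.03 and -0.02 for all genes. The members that fell were Rpl23a, a protein at the exit of the peptide tunnel, and Rpl34 in ACI, and Rpl34 in COP. With scaling to the cre spike-in, chosen after seeing the data, 14, 15 and 6 members rose and 1 fell in each strain. Of all genes, 8.03%, 5.26% and 2.41% rose on that scaling and 37.3%, 41.8% and 53.6% fell. The median of all genes was then -0.54, -0.63 and -0.77, so that scaling moved most of the array down. With cyclic loess, also chosen after seeing the data, 12, 20 and 21 members rose, against 25.3%, 23.1% and 17.3% of all genes. On it 2 members fell in ACI, against 28% of all genes there. With median centring 43, 42 and 41 members rose, against 30.9%, 25.3% and 20.0% of all genes, and the median of all genes was 0.08, 0.02 and 0.02. The members' median stayed above that of all genes on each of the 5 scalings that were run, and stayed above 0.

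A few members kept a called rise in all 3 strains on each of these scalings. Rplp0, Rpsa and Rpl39l1 were called higher in ACI, COP and BN on the deposited scaling, after median centring, after quantile normalization, after cyclic loess and after scaling to the spike-in. With quantile normalization Rpl4, Rpl12, Rpl22 and Rpl24 were also higher in all 3 strains, which made 7 of 47 members, against 12.0% of all genes. With cyclic loess 8 of 47 members were, against 11.8%. Both counts are not far above the share of all genes. With spike-in scaling 4 members were higher in all 3 strains, against 1.89%, and with median centring 39, against 14.4%. Rpl4, Rpl12, Rpl22 and Rpl24 were named after their values were seen.

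**Figure D2:**
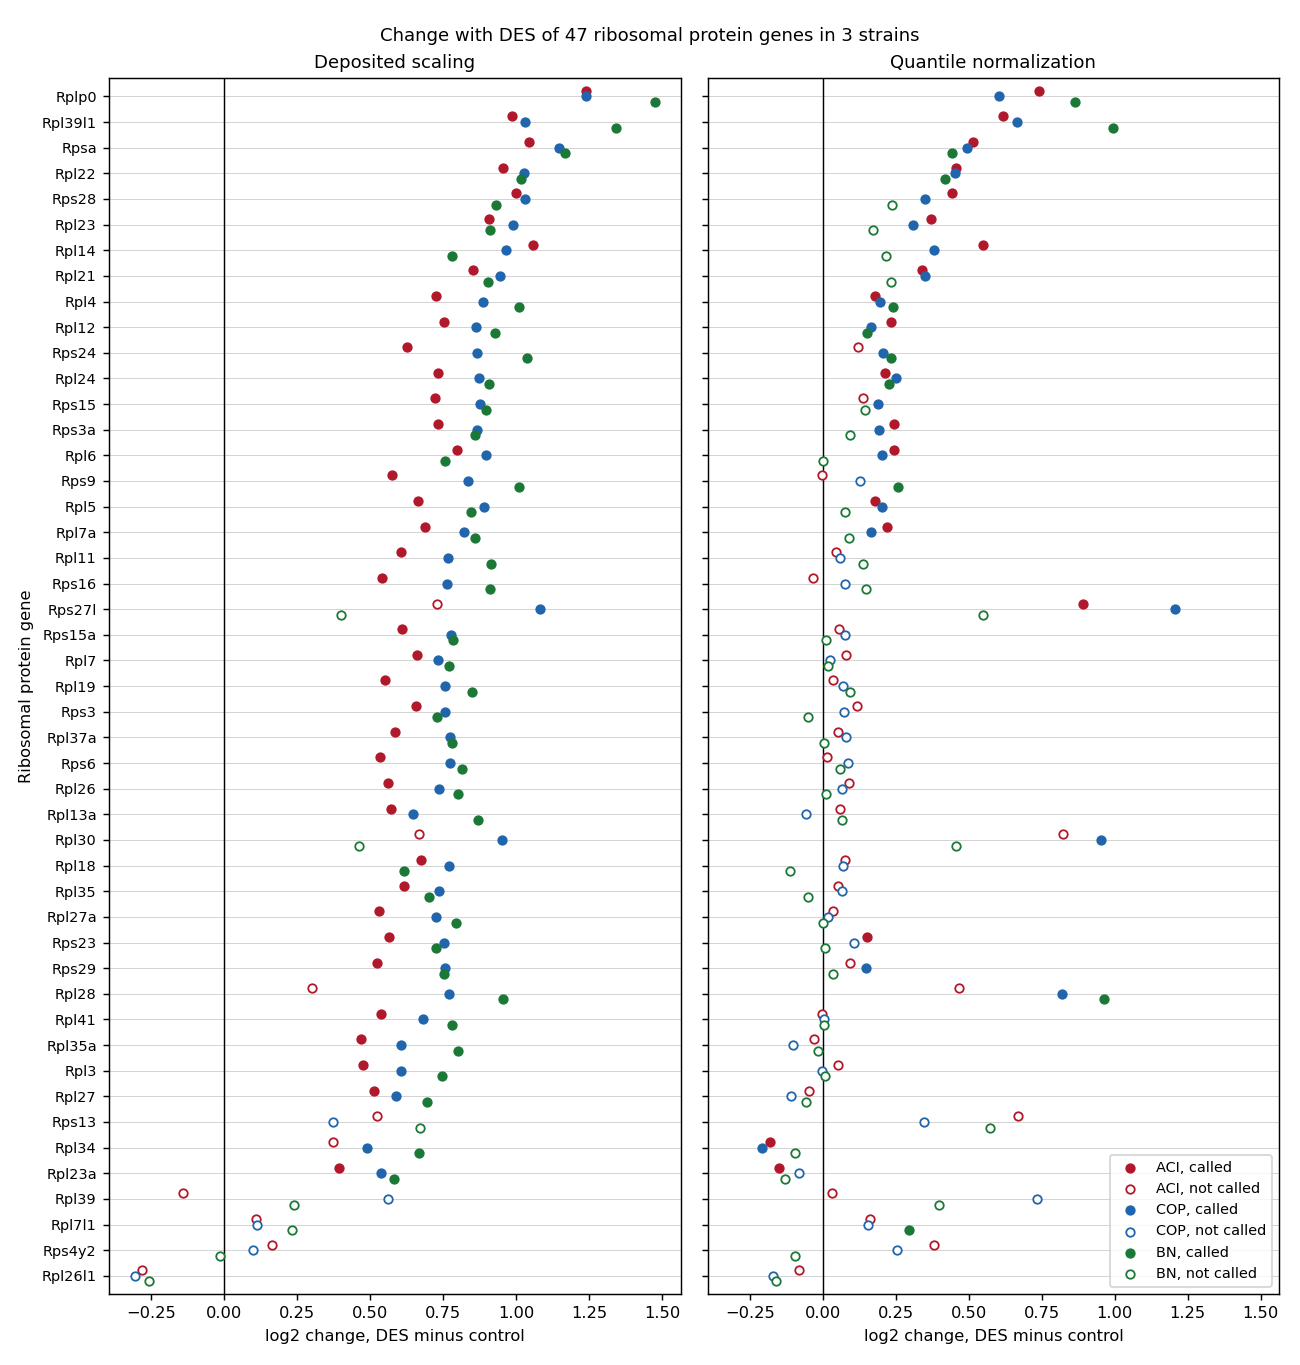
Each row is a ribosomal protein gene, and the axis is its log2 change, DES minus control, in ACI, COP and BN on the deposited scaling (left) and after quantile normalization (right); filled points were called at an adjusted p under 0.05. Most members lie near 0.5 to 1.0 on the left and near 0 on the right, while Rplp0, Rpl39l1, Rpsa and Rpl22 stay well to the right of 0 in both.

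Rplp0 encodes the base of the acidic stalk of the large subunit, which recruits the elongation factors. In ACI its signals were 25388, 29160, 30780 and 31496 with DES and 10776, 12291 and 14157 in controls. In COP they were 28884, 29727, 33240 and 34184 with DES and 11914, 13886 and 14265 in controls. In BN they were 23614, 22921, 43799 and 32684 with DES and 9902, 10641 and 11528 in controls. No DES array overlapped a control array in any strain. The log2 change came to 1.24 ± 0.16 for ACI, 1.24 ± 0.16 for COP and 1.47 ± 0.16 for BN (SE of the fit), with adjusted p of 1.6e-06, 2.3e-06 and 3.9e-07 in limma. The exact two-sided permutation p was 0.0286 in each strain, the smallest that 35 splits of 4 against 3 arrays allow. Rplp0 was named for a called rise without overlap, so this p restates the separation and adds no further evidence. After quantile normalization the changes were 0.74, 0.60 and 0.87.

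Rpsa encodes a protein of the small subunit that is also known as the laminin receptor precursor. In ACI its signals were 25375, 28245, 30690 and 31315 with DES and 11137, 13403 and 18240 in controls. In COP they were 26355, 29766, 33493 and 35886 with DES and 13781, 15315 and 13189 in controls. In BN they were 20706, 21388, 46070 and 36256 with DES and 12124, 13168 and 13886 in controls. The groups did not overlap, and BN DES replicates 3 and 4 stood far above replicates 1 and 2. The log2 changes over the strains, ACI first, were 1.04, 1.15 and 1.17 (SE 0.21 each), or 0.51, 0.49 and 0.44 after quantile normalization. Both further probe sets of Rpsa were higher as well, by 1.01 to 1.80 over the 3 strains.

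Rpl39l1 is a paralog of Rpl39, whose protein lines the peptide tunnel. In ACI its signals were 14865, 12960, 14272 and 16623 with DES and 5736, 5405 and 12922 in controls, so that ACI control replicate 3 nearly reached the DES arrays. In COP they were 9246, 10804, 11672 and 14353 with DES and 5698, 6412 and 4693 in controls. In BN they were 7336, 8081, 19292 and 16657 with DES and 4492, 4835 and 4555 in controls. The log2 changes were 0.99, 1.03 and 1.34 (SE 0.29 each), with adjusted p of 0.0066, 0.0057 and 0.00093 in limma. Without ACI control replicate 2 the change in ACI was 0.76 and was not called. Its parent Rpl39, on a dim probe set, had changes of -0.14, 0.56 and 0.24 and was called in no strain.

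Rpl14 is a large-subunit protein. Its signals were 21186, 22107, 24079 and 22814 with DES and 10495, 11959 and 10099 in controls in ACI. They were 22251, 24262, 22011 and 25760 with DES and 12909, 12756 and 10585 in controls in COP. In BN they were 18392, 18770, 21167 and 19034 with DES and 11507, 12045 and 10208 in controls. The log2 changes were 1.06, 0.97 and 0.78 (SE 0.10 each), and 0.55, 0.38 and 0.22 after quantile normalization, where the change in BN was not called (limma, adjusted p = 0.18). A second, dim probe set of Rpl14 had changes of 0.51, 0.27 and 0.44, none of them called.

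Rps28, a small-subunit protein, had changes of 1.00, 1.03 and 0.93 (SE 0.12 each) in ACI, COP and BN, and all DES arrays lay above all control arrays. Rpl22, an RNA-binding protein of the large subunit, had changes of 0.95, 1.03 and 1.02 (SE 0.16 each). Rps24, a small-subunit protein, had changes of 0.63, 0.87 and 1.04 (SE 0.21 each), and its ACI groups overlapped because ACI control replicate 3, at 28961, exceeded the lowest DES array, at 28396. Without ACI control replicate 1 or 2 the change of Rps24 in ACI was 0.47 or 0.55 and was not called. A second probe set of Rps24 was also higher, by 1.14, 1.34 and 0.54.

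**Figure D3:**
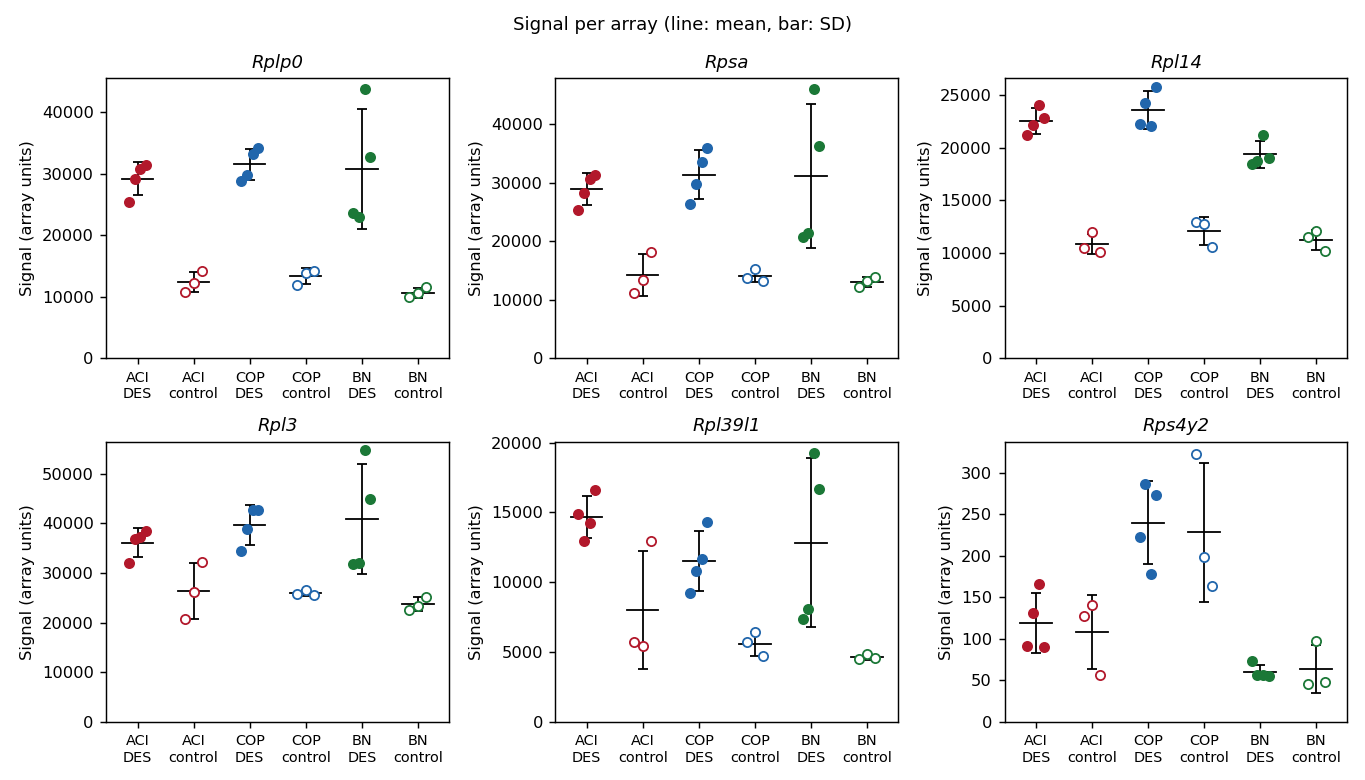
Signal per array in array units for 6 members, with DES left of control in each strain, lines at group means and bars for SDs. Rplp0, Rpsa and Rpl14 show DES arrays above control arrays in every strain, Rpl3 overlaps in ACI, and Rps4y2 separates COP from BN with and without DES.

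The 3 members with the brightest probe sets had changes below the members' median in each strain. Rpl3, which lies next to the peptidyl transferase centre, changed by 0.47, 0.61 and 0.75 (SE 0.16 each), and all 3 changes were called. Its ACI signals were 31928, 36911, 37177 and 38500 with DES and 20717, 26214 and 32154 in controls, so the groups overlapped. After quantile normalization the changes of Rpl3 were 0.05, -0.0035 and 0.01, and none was called. Rps23, a protein of the decoding centre, changed by 0.56, 0.75 and 0.73 (SE 0.16 each), and Rps29 by 0.52, 0.76 and 0.75 (SE 0.17 each), with 0.15, 0.11 and 0.01 for Rps23 and 0.09, 0.15 and 0.03 for Rps29 after quantile normalization. Without ACI control replicate 1 the changes of Rpl3 and Rps29 in ACI were 0.31 and 0.34 and were not called.

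Within the bright class the change with DES was smaller for probe sets that were brighter in controls. Across the 39 bright genes, Pearson's r between the log2 change and the mean control log2 signal was -0.70 for ACI, -0.56 for COP and -0.58 for BN, with Spearman's rho of -0.67, -0.60 and -0.39. These values describe 39 genes measured on the same arrays, which are not independent, the change contains the control level itself, and brightness depends on the probes as well as on the transcript.

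**Figure D4:**
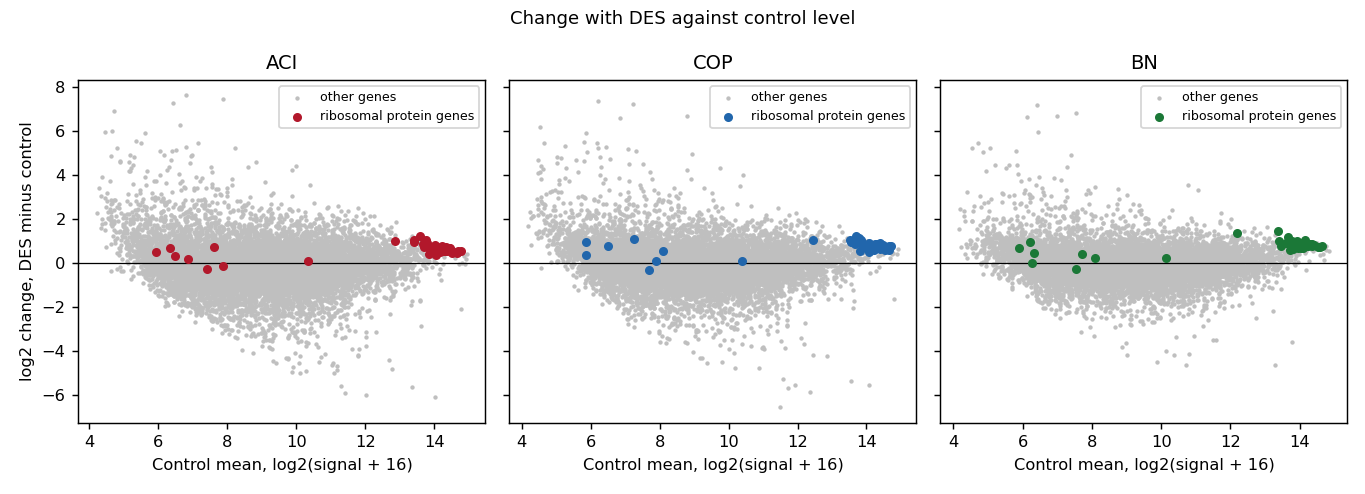
Log2 change, DES minus control, against the mean control log2(signal + 16) for each gene in ACI, COP and BN; grey points are other genes and coloured points the 47 ribosomal protein genes. The bright members form a tight group at the right edge above 0, and the 8 dimmer members scatter among the other genes.

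The ribosomal proteins Rpl5 and Rpl11 bind 5S ribosomal RNA and, when free, the p53 regulator Mdm2. Rpl5 rose by 0.66, 0.89 and 0.85 and Rpl11 by 0.60, 0.77 and 0.91 in ACI, COP and BN. Rps6, the substrate of S6 kinases, rose by 0.53, 0.77 and 0.81. These 3 were named for their roles after the values were seen. After quantile normalization the changes of Rps6 were 0.01, 0.09 and 0.06 and those of Rpl11 were 0.04, 0.06 and 0.14, with no call in any strain, and Rpl5, at 0.18, 0.20 and 0.07, was called in ACI and COP.

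Among the 8 dimmer members, 0 rose in ACI, 3 in COP and 1 in BN, against 23.1%, 21.6% and 16.9% of all genes. Their median changes were 0.23, 0.47 and 0.32. None of the probe sets that stood for them had an unadjusted p under 0.05 for a fall in limma. Rps27l, a paralog of Rps27 known in human cells as a p53 target, had signals of 212, 216, 409.7 and 472 with DES and 105, 120.1 and 202 in controls in COP. There the groups did not overlap and the change was 1.08 ± 0.34 (limma, adjusted p = 0.013). In ACI the change was 0.73 ± 0.34 (limma, adjusted p = 0.081) and in BN 0.40 ± 0.34 (limma, adjusted p = 0.40). After quantile normalization Rps27l was called in ACI as well, with 0.89. Rpl28 was called in COP, at 0.77, and in BN, at 0.95, and Rpl30 in COP, at 0.95. These calls in COP rested on few arrays. Without COP control replicate 1, control replicate 2 or DES replicate 4, the change of Rps27l was 0.91, 1.00 or 0.88 and not called, and without ACI control replicate 3 or DES replicate 2 it was called in ACI, at 1.03 or 0.90. Rpl28 was not called in COP without control replicate 1, control replicate 3, DES replicate 2 or DES replicate 3, at 0.77, 0.60, 0.69 or 0.67. Rpl30 was not called in COP without control replicate 1, control replicate 3 or DES replicate 2, at 0.58, 1.02 or 0.82. The changes of Rps13 were 0.52, 0.37 and 0.67 and were not called.

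Rpl7l1, a paralog of Rpl7, is measured by 2 probe sets that went opposite ways. On the brighter one its signals were 1320.2, 1463, 1355 and 1394 with DES and 1249, 1239.9 and 1361 in controls in ACI, and the changes were 0.11, 0.11 and 0.23 in ACI, COP and BN, none called. On the other the changes were -0.43 (limma, adjusted p = 0.020) in ACI, -0.49 (limma, adjusted p = 0.010) in COP and -0.25 in BN, which was not called. On that probe set all DES arrays lay below all control arrays in ACI and in COP, at 773.5 to 932.1 with DES and 998.7 to 1313.9 in controls in ACI, and at 782 to 895 with DES and 1049 to 1364 in controls in COP. Rpl26l1, a paralog of Rpl26, had changes of -0.28, -0.30 and -0.26 (SE 0.19 each), none called on the deposited scaling. With scaling to the spike-in it was called lower in all 3 strains, as were 3476 of all 11750 genes. In BN all 4 DES signals of Rpl26l1, at 144, 112, 159.9 and 146, lay below the 3 control signals, at 178, 167 and 166, the only such case in any strain among the probe sets that stood for the 47 genes, against 24.9% of all genes in BN.

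The second question was whether the strains differed. No member differed between strains in its response to DES at an adjusted p under 0.05 in limma's moderated F test, and none at an unadjusted p under 0.05, against 14.8% of all genes at the adjusted threshold. After DES 2 members differed, Rps4y2 and Rpl14, against 35.4% of all genes, and in control rats 1 member differed, Rps4y2, against 8.32%. With quantile normalization the members called were Rps4y2, Rpl6 and Rps16 after DES and Rps4y2, Rpl6 and Rplp0 in controls, and again none in the response. The share of all genes in these F tests was not counted on that scaling, so it cannot be set beside the members. These counts take the brightest probe set of each gene. The second, dim probe set of Rps24 had an unadjusted p of 0.023 for the response (moderated F, adjusted p = 0.13). It was called after DES with quantile normalization (moderated F, adjusted p = 0.048). Leaving out single arrays gave 1 to 4 members after DES, with 4 without BN DES replicate 3. Counts with part of the array numbers follow, for which the share of all genes was not counted, so they cannot be set against it. With only the arrays numbered 1 and 2, 16 members differed between strains after DES and 1 in the response. With only those numbered 3 and 4, 9 differed after DES and 8 in the response, but there each control group held 1 array, which was assumed to vary like the other groups.

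Rps4y2 is named as a paralog of the X-linked Rps4x, and RefSeq places it on chromosome 4 of GRCr8. Its signals were 222, 287, 178 and 274 in COP rats with DES and 323, 199 and 163 in COP controls. They were 91.4, 131, 166 and 89.6 in ACI rats with DES and 127, 141 and 56.6 in ACI controls. In BN they were 73, 56.6, 55.8 and 54.6 with DES and 45.4, 97.2 and 48.2 in controls. COP was above BN by 1.74 ± 0.28 after DES (limma, adjusted p = 8.5e-05) and by 1.62 ± 0.32 in controls (limma, adjusted p = 0.0024), without overlap of the arrays. ACI was above BN by 0.80 ± 0.28 after DES (limma, adjusted p = 0.030), and ACI minus COP was -0.93 ± 0.28 (limma, adjusted p = 0.056). DES changed it by 0.16, 0.10 and -0.01 in ACI, COP and BN, with no call. For Rpl14, COP was above BN after DES by 0.28 ± 0.09 (limma, adjusted p = 0.028), a difference that was not called after quantile normalization in the F test (adjusted p = 0.32).

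Genes that work with the ribosome were set beside the members on the same arrays. For each list below, the shares of all genes in ACI, COP and BN were 23.1%, 21.6% and 16.9% higher. They were 32.4%, 28.1% and 22.6% lower. These shares and the list counts are on the deposited scaling, and counts after quantile normalization are given only for the mitochondrial list. Rack1, a scaffold protein of the small subunit, rose by 0.75, 0.76 and 0.73 in ACI, COP and BN, with changes of 0.22, 0.14 and 0.06 after quantile normalization, where BN was not called. Of 10 tested translation elongation and termination genes, 8 rose and 1 fell in ACI and in COP, and 6 rose and 1 fell in BN. Eef1g, a subunit of the exchange factor of elongation factor 1, rose by 1.13, 1.00 and 0.88, and its change in BN was 0.10 and not called after quantile normalization. Of 28 initiation genes, 16, 14 and 19 rose and 1, 1 and 2 fell, and Eif3l, a subunit of initiation factor 3, rose by 1.00, 0.69 and 0.61.

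Of 37 ribosome assembly genes, 13 rose and 3 fell in ACI, 16 rose and 0 fell in COP, and 11 rose and 1 fell in BN, with medians of 0.19, 0.31 and 0.23. Nop56, a core protein of the particles that methylate ribosomal RNA, rose by 1.76, 2.03 and 1.92, and by 1.56, 1.83 and 1.82 after quantile normalization. Of 15 RNA polymerase I genes, 2, 5 and 2 rose and 2, 1 and 0 fell, against 23.1%, 21.6% and 16.9% of all genes that rose. Among 15 genes that control the translation of ribosomal protein mRNAs or their transcription, 4, 4 and 5 rose and 4, 2 and 4 fell. Myc, a transcription factor known to raise ribosome biogenesis, rose by 2.00, 2.43 and 2.66, and Rheb, the activator of mTOR, by 1.02, 1.09 and 0.94. Eif4ebp1, the translation repressor that mTOR inactivates, rose by 1.12, 0.84 and 0.43. Other genes of that list fell in all 3 strains, Akt1 with changes of -0.47, -0.46 and -0.82 and Tsc2 with -0.87, -0.69 and -0.43. Akt1 and Tsc2 were named after their values were seen.

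The proteins of the mitochondrial ribosome form a separate set. Of 73 tested, 24 rose and 9 fell in ACI, 19 rose and 10 fell in COP, and 22 rose and 4 fell in BN, with medians of 0.14, 0.08 and 0.18. After quantile normalization 29, 20 and 23 rose, with medians of 0.20, 0.10 and 0.21, against 24.9%, 22.7% and 17.5% of all genes. Some fell on that scaling too, in every strain, among them Mrps6 and Mrpl49. The changes of Mrpl49, named after its values were seen, were then -0.28, -0.29 and -0.25. Mrps6 fell by 1.67, 1.46 and 0.58 on the log2 scale.

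Markers of the gland's cell types changed with DES as well. Of all genes, 23.1%, 21.6% and 16.9% rose and 32.4%, 28.1% and 22.6% fell in ACI, COP and BN. All 5 gonadotroph markers fell in ACI and COP, as did 4 in BN. Their summed signal was 785 to 972 with DES and 27590 to 34739 in controls in ACI, 1458 to 1465 with DES and 31490 to 35154 in controls in COP, and 2205 to 2678 with DES and 22741 to 30631 in controls in BN. Of 5 folliculostellate markers, 4, 4 and 3 fell in ACI, COP and BN. Of 8 leukocyte markers, 6 rose and 0 fell in ACI, 8 rose in COP, and 4 rose in BN, where Cd74 fell by 0.73 on the log2 scale. Their summed signal was 13705 to 16939 with DES and 5513 to 5794 in controls in ACI, 14819 to 19865 with DES and 4092 to 4777 in controls in COP, and 8589 to 14214 with DES and 8402 to 9983 in controls in BN, where the groups overlapped. Of 6 lactotroph markers, 0 rose and 3 fell in ACI, 1 rose and 3 fell in COP, and 2 rose and 2 fell in BN. Prl, the hormone of lactotrophs, had changes of 0.40, 0.62 and 0.77 and was called in COP and BN. After quantile normalization its changes were 0.04, 0.03 and 0.06, and none was called. Pou1f1, a transcription factor of the lineage, fell by 0.74, 0.71 and 0.59 and Prlr, the prolactin receptor, by 2.03, 1.55 and 2.04 on the log2 scale. The summed signal of these markers, most of it from Prl, was 45867 to 57741 with DES and 39113 to 54532 in controls in ACI, 48904 to 61377 with DES and 42439 to 45028 in controls in COP, and 43536 to 75755 with DES and 38239 to 42500 in controls in BN. The part of these shifts in the members' rise was not tested.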

How the data were processed

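The deposited intensity signals, 1 value per probe set and array, had been scaled by the authors to a trimmed mean of 500.1 to 500.2 on every array, and which software summarized the probes is not given in the sources used here. Probe sets whose signal passed their array's 40th percentile 3 or more times were tested, which left 21858, and the probe set of highest mean stood for a gene. Signals were analysed as log2(signal + 16) in limma 3.58.1 (R 4.3.3) with 6 group means and a variance trend, and p-values were adjusted by Benjamini-Hochberg over all probe sets tested. Precision was limited by the number of arrays. Promoters came from RefSeq. Named members were those with the largest called rises without overlap, those called between strains, paralogs, and the 3 brightest and 3 dimmest, and from the other lists the genes of smallest p in ACI. Members and lists were chosen with earlier results of these data known. Replicate numbers were not used as pairs, since the labels name nothing that a number shares. Correlations between arrays of the same number ran from -0.047 to 0.316, and 29 of 45 were over 0.1. Only the DES groups held a number 4, so an effect shared by a number would not be balanced between DES and control. The script was tested on simulated data.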

Additional observations from a re-analysis of the deposited data

Results flagged for a closer look

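Rps4y2 in BN rats treated with DES was flagged because 1 array lay far from the other 3. The signals were 73, 56.6, 55.8 and 54.6, and the gap between the highest array, replicate 1, and its neighbour was 0.879 of the whole range on the log2 scale, above Dixon's 95% critical value for 4 samples. Of 51 groups examined, 1 was flagged, and chance flags about 1 in 20. All 4 signals were below every COP array.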

How the results depend on the processing

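Adding 1 or 64 before the log2, no filter, the 60th percentile filter, median centring, no variance trend, the mean of a gene's probe sets and the replicate block kept the numbers of members called with DES between 36 and 43. Median centring moved the median of all genes to 0.08 in ACI. Quantile normalization gave 19, 22 and 11 calls in ACI, COP and BN and 3 between control strains. Cyclic loess gave 14, 20 and 21, and 2 between control strains, and scaling to the cre spike-in gave 15, 16 and 7, with 0 between control strains and 1 after DES; both were chosen after seeing the data. Rpl3 turned to -0.0035 in COP with quantile normalization and to -0.0847 with cyclic loess, and in ACI cyclic loess turned Rps29 to -0.157, Rps23 to -0.108 and Rpl3 to -0.186; the cause was not tested. With the 90th percentile filter 0 members differed between control strains and 1 after DES. No filter, no variance trend, only the groups compared and the mean of probe sets each gave 1 after DES. With only arrays numbered 1 and 2, 16 members differed after DES, 2 in controls and 1 in the response. The share of all genes was not counted for this set of arrays or for that of numbers 3 and 4. With only numbers 3 and 4, 16 members were called in ACI, 9 differed after DES and 8 in the response, with 1 array left in each control group, which was assumed to vary like the others. Leaving out 1 array gave 22 to 40 calls in ACI, 38 to 42 in COP, 40 in BN and 1 to 4 between strains after DES, with 4 without BN DES replicate 3. With the replicate number as a block, 40, 42 and 40 members were called with DES and 3 after DES between strains; the labels name nothing that a number shares, and between DES and control arrays of the same number the deviations correlated at 0.080 to 0.091 in ACI, 0.084 to 0.164 in COP and 0.138 to 0.238 in BN. Over all pairs of groups 29 of 45 correlations were over 0.1 and the lowest was -0.047, so pairing was not taken as given and the block changed no call count in BN. The 3 or 4 arrays per group limit the precision, and the dim members lie closest to the signal filter.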
